A study of Mus musculus with 15 samples.

Results

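The genes described here are 32 genes of the postsynaptic density and the synaptic cleft: scaffolds, adhesion proteins, kinases and their partners. They were taken by gene symbol from the table of raw counts, which holds 30386 genes, and all 32 were found there, once each. The counts come from brains of adult mice, which the series text calls whole brains and the sample labels call a brain hemisphere. Groups have 5 libraries each. WT_PBS are wild types injected with phosphate-buffered saline. Het_PBS are Tbx1+/- mice, with 1 mutant copy of the T-box transcription factor gene Tbx1, injected with the same saline. Het_B12 are Tbx1+/- mice injected with vitamin B12 at 20 mg/kg dissolved in that saline. All 3 groups were injected intraperitoneally, 2 times a week for 4 weeks from an age of 4 weeks. A wild-type group with the vitamin was not analysed here. The study asks whether loss of a Tbx1 copy alters the adult brain and whether the vitamin acts on what it alters.

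At an excitatory synapse the glutamate receptors are held in a dense protein layer under the membrane. MAGUK proteins such as PSD-95 bind the receptors, SAPAP proteins bind the MAGUKs, and Shank and Homer proteins join that layer to the spine interior and to metabotropic receptors. Neuroligins in the postsynaptic membrane meet neurexins of the axon terminal across the cleft. The calcium- and calmodulin-dependent kinase CaMKII and the phosphatase calcineurin act in this layer when calcium enters, and exchange factors for small GTPases set the actin of the spine and receptor traffic.

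Among the members that passed a test, Nlgn2 rose and Agap2 fell in Het_B12 against WT_PBS. The 120 bases upstream of their RefSeq transcript starts (GRCm38.p6) are shown because these stretches overlap no annotated exon. Capitals mark a GC box, GGGCGG on either strand, found by a search of both strands. The Nlgn2 stretch is chr11:69837785-69837904, minus strand, directly before the annotated gene. The Agap2 stretch is chr10:127078787-127078906, plus strand. It lies inside the annotated gene, upstream of a RefSeq start that is internal to it.
Nlgn2: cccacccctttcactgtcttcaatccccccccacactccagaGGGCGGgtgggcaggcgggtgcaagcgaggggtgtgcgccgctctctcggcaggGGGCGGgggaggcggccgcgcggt
Agap2: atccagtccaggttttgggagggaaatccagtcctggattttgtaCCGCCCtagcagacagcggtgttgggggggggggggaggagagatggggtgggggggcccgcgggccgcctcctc
The Nlgn2 stretch holds 2 such boxes and the Agap2 stretch holds 1. Promoter windows were matched by symbol for 24 of the 32 members (41 windows), not including Camk2g and Dlgap2. In the 250 bases upstream, a GC box stood in 48.8% of the member windows and in 33.0% of 32536 windows of that length in RefSeq. Other motifs were searched too. A cAMP response element half-site stood in 9.76% of member windows and 17.85% of all, and an E-box in 7.32% and 6.04%. An NRF1 core was rare. Member windows were richer in G and C (57.2% against 52.4%), and 12 members had more than 1 window. The GC box contrast was not tested and does not allow for these differences. A match of letters is a description of the sequence only, and these data hold no measurement at promoters.

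Counts were made by QuantSeq, which reads the 3′ end of polyadenylated RNA, so a transcript gives about 1 read whatever its length, and forms of a gene that share an end are counted together. Levels are given as CPM, that is counts scaled to library size, after TMM scaling. Library totals were 1683258 to 2746122 counts, at which 3 counts, the detection floor used here, are 1.09 to 1.78 CPM. Every member lay above that floor in every library. Tbx1 itself had 3, 3 and 1 reads summed over the WT_PBS, Het_PBS and Het_B12 libraries, too few to check the genotype labels. WT_PBS 3 stood with the Het_B12 libraries on the first principal component (17.8, against 19.1 to 32.8 in Het_B12 and -22.1 to -13.7 in the other WT_PBS libraries), and Het_PBS 5 stood apart on the second (-43.5). The label of Het_PBS 5 and that of Het_B12 1 carry the same animal number. Their counts differed with a chi-square per degree of freedom of 11.3, and the lowest value among 30 pairs within groups was 3.14. Neither library is thus a copy of the other, and they were kept as separate samples. Whether both come from the same animal cannot be told from this value. No label says how the other animals relate.

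Marker genes of some other cell types moved with the Het_B12 group, and in bulk tissue fewer cells of a type and less RNA per cell cannot be told apart. Of 10 astrocyte markers, 8 fell in Het_B12 against Het_PBS, and their summed level was 4956 to 5842 CPM against 7492 to 8555. Of 10 microglial markers, 5 fell (378 to 464 CPM against 583 to 803). Of 8 endothelial markers 7 were tested and 5 rose (178 to 247 CPM against 79.8 to 113), with Pecam1 and Tek at 0 in at least 1 library. Of 8 nuclear RNAs listed 7 were tested, such as Malat1 and Meg3, and all 7 rose (16654 to 27619 CPM against 8272 to 10445), and WT_PBS 3 stood at 25273 CPM for them. Of 11 general neuronal markers, 1 rose and none fell, and the summed level was 8085 to 8954 CPM in Het_B12, 7843 to 8932 in Het_PBS and 7976 to 9524 in WT_PBS. Of 7 excitatory neuron markers, 1 rose and 1 fell against each other group. Their summed level was 968 to 1191 CPM in Het_B12, 874 to 1189 in Het_PBS and 1008 to 1213 in WT_PBS. Of 8 oligodendrocyte markers 1 fell against each other group, and of 5 oligodendrocyte precursor markers 0 passed, with overlapping summed levels in both lists. Of 8 cerebellar neuron markers, 4 rose and none fell against Het_PBS, with a median log2 difference of 0.44. Their summed level was 774 to 1090 CPM in Het_B12, 788 to 963 in Het_PBS and 903 to 1081 in WT_PBS. None of them passed in Het_B12 against WT_PBS, and 7 of the 8 lay below 0 in Het_PBS against WT_PBS. Against WT_PBS, 7 astrocyte markers fell (6168 to 8418 CPM in WT_PBS, above every Het_B12 library), 5 endothelial markers rose (78.8 to 120 CPM in WT_PBS, below every Het_B12 library) and 6 nuclear RNAs rose. Of the microglial markers, 5 fell, and the summed levels overlapped through WT_PBS 3 (449.9 CPM). In Het_PBS against WT_PBS no gene of these lists passed. Gm42418 took 10.6% to 14.9% of all counts in WT_PBS, 6.47% to 10.3% in Het_PBS and 3.31% to 6.28% in Het_B12, so that the 3 groups did not overlap. With Gm42418 and the mitochondrially encoded genes left out before scaling, 0, 3 and 2 members passed in Het_PBS against WT_PBS, Het_B12 against Het_PBS and Het_B12 against WT_PBS, where the counts with them were 0, 3 and 3. The part of the marker genes in the values of the 32 genes was not tested.

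Within wild types the members spanned a wide range of levels, on the CPM scale. Nrgn was the most abundant at 7398 ± 898 CPM (SD, n = 5), followed by Camk2a at 2606 ± 309.9 and Ppp3ca at 2472 ± 142, whose ranges over libraries overlapped. Dlgap1 was next at 869 ± 22.4, apart from both neighbours in every library, and Nrxn2 followed at 711 ± 72.0. From Nrxn2 down to Iqsec1, at rank 14, each gene overlapped the next. Iqsec1 (262 ± 52.5 CPM) lay above Homer2 (145 ± 21.4) in every library. The order from Homer2 down to Lrrc7 (52.5 ± 8.12) again held no gap, and Shank2 (28.4 ± 4.31) and Shank3 (16.8 ± 2.88) closed the list, each separate from its neighbours. Summed over all 32 genes, the members took 1.95% ± 0.149 of all normalised counts in wild types, 1.94% ± 0.126 in Tbx1+/- mice under saline and 1.90% ± 0.133 in those given the vitamin (SD, n = 5), and the 3 ranges overlapped. The median SD between libraries of a group was 0.20 on the log2 scale for the members, with Ppp3ca the steadiest at 0.09 and Shank3 the most variable at 0.45, and 0.33 for all 11718 genes tested, whose median level is lower (25.1 CPM against 141).

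**Figure D1:**
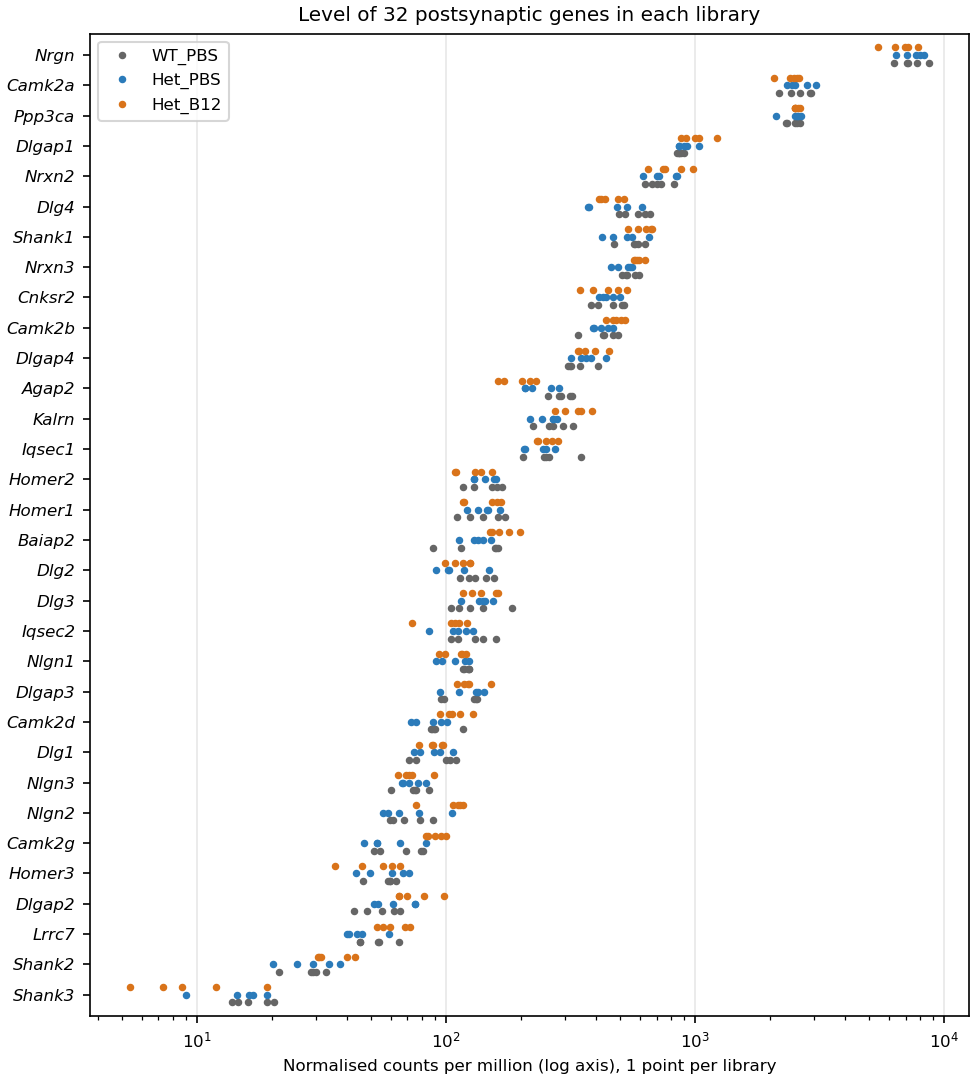
Level of each of the 32 genes in each library, in normalised CPM on a log axis, with 1 point per library and 1 colour per group, ordered by the wild-type mean. Nrgn stands at 5442 CPM or more in all 15 libraries and Shank3 at or below 20.5, and for most genes the 3 groups lie on top of each other.

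Between Tbx1+/- mice and wild types under saline, 0 of the 32 members passed, at a Benjamini-Hochberg adjusted p under 0.05 over all genes tested in edgeR's quasi-likelihood test. DESeq2 and limma-voom also called 0 members. The background was the same, since 0% of 11718 genes (0) passed and the count at an unadjusted p under 0.05 was 879 genes, 2 of them members, Dlg4 and Agap2. Of the members, 13 had a mean above wild type and 19 below, with a median log2 difference of -0.03 beside -0.01 for all genes. The differences ran from -0.31 for Agap2 to 0.22 for Dlgap2, and the smallest adjusted p was 0.563. The 95% intervals of 31 members lay within 1.5-fold in either direction. The exception was Shank3 (-0.71 to 0.42 on the log2 scale), and its interval lay within 2-fold. For no member did the 2 groups separate without overlap, beside 0.836% of all genes (0.393% higher and 0.444% lower).

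With vitamin B12 in Tbx1+/- mice, 3 members rose against Het_PBS and none fell: the kinase subunit Camk2g, the adhesion gene Nlgn2 and the exchange factor Kalrn. That is 9.38% of the members beside 7.26% of all genes tested in either direction, a share near that background. The 3 calls are all rises, and of all genes 3.47% were higher and 3.79% lower. A count of 3 is small, and no test was run over the list. The median log2 difference of the members was 0.03 beside 0.01 for all genes, and 22 of the 32 (68.8%) were above 0, beside 51.4% of all genes. All genes are an unlike background for this share, since 19 members are among the genes with the longest transcripts, described below. The median log2 difference of all genes in that class was 0.12. With an offset for transcript length the members moved by a median of -0.09, and most of them then lay below 0. In 2 members, Camk2g and Nrxn3, every Het_B12 library lay above every Het_PBS library, and no member separated the other way. Of all genes, 7.83% did not overlap (3.75% higher and 4.07% lower).

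Against wild types under saline, Het_B12 differs in genotype and in injection at once, and these cannot be told apart. Here 2 members rose, Nlgn2 and the SAPAP gene Dlgap2, and 1 fell, the GTPase regulator Agap2, beside 7.33% of all genes (3.22% higher and 4.11% lower). The median log2 difference was 0.06 for the members and 0.01 for all genes, with 18 members (56.2%) above 0 beside 50.8% of all genes. For all genes in the class with the longest transcripts, which holds 19 members, the median was 0.08. Groups did not overlap for Camk2g, which lay higher, and Agap2, which lay lower, beside 5.38% of all genes (2.44% higher and 2.94% lower). The 3 comparisons share their groups in pairs, so their values are not independent of each other.

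**Figure D2:**
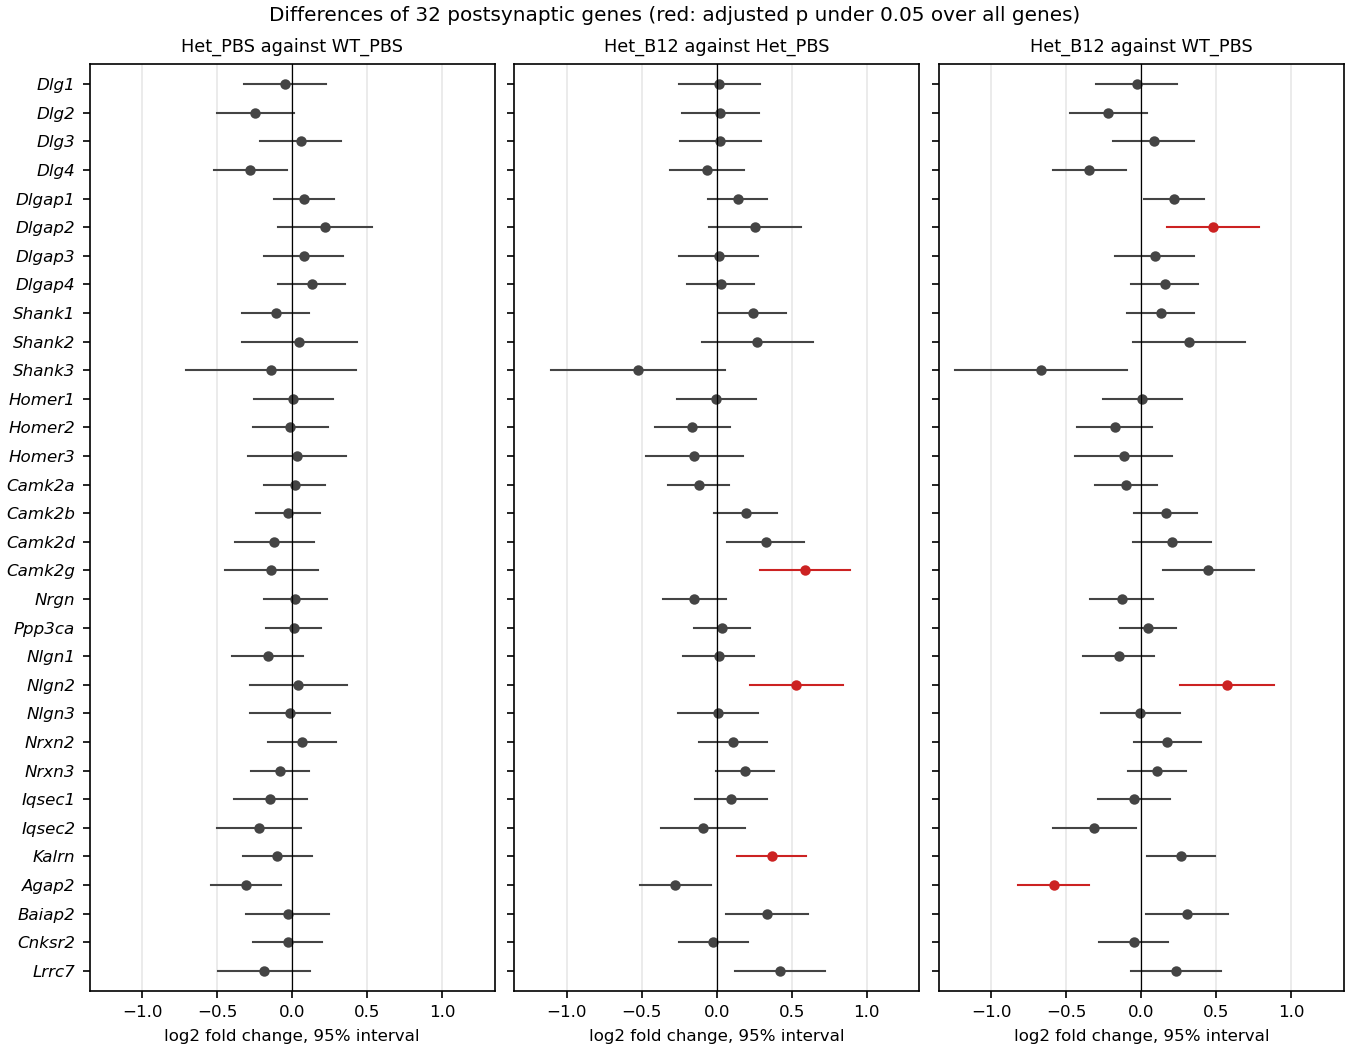
Log2 fold change of each of the 32 genes in the 3 comparisons, with its 95% interval, in red where the adjusted p over all genes is under 0.05. No gene is red in Het_PBS against WT_PBS. Camk2g, Nlgn2 and Kalrn are red in Het_B12 against Het_PBS, and Nlgn2, Dlgap2 and Agap2 in Het_B12 against WT_PBS.

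Without WT_PBS 3 and Het_PBS 5, the libraries that stood apart, Camk2g was the 1 member called in Het_B12 against Het_PBS (0.51 ± 0.15, adjusted p = 0.0274), while the count over all genes went from 851 to 947. In Het_B12 against WT_PBS the count was then 5. Agap2 (-0.64 ± 0.12, adjusted p = 0.000141) and Dlg4 (-0.41 ± 0.11, adjusted p = 0.0134) were lower, and Nlgn2 (0.61 ± 0.15, adjusted p = 0.00667), Dlgap2 (0.48 ± 0.16, adjusted p = 0.0380) and Camk2g (0.45 ± 0.15, adjusted p = 0.0401) were higher. Over the whole table that comparison then called 1390 genes in place of 859.

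The MAGUK scaffolds carry PDZ domains that bind the tails of glutamate receptors, and Dlg4, which encodes PSD-95, is the abundant member in brain. No MAGUK passed in any comparison. Dlg4 was at 591, 629, 493, 657 and 521 CPM in WT_PBS 1 to 5, at 614, 534, 375, 485 and 371 in Het_PBS 1 to 5, and at 491, 411, 418, 520.0 and 437 in Het_B12 1 to 5. Het_PBS 3, 4 and 5 and Het_B12 1, 2, 3 and 5 lay below every wild type, and the groups overlapped. The log2 differences of Dlg4 were -0.28 ± 0.12 (adjusted p = 0.608) in Het_PBS against WT_PBS, -0.07 ± 0.12 (adjusted p = 0.810) in Het_B12 against Het_PBS and -0.35 ± 0.12 (adjusted p = 0.0735) in Het_B12 against WT_PBS. The last of these passed without WT_PBS 3 or without Het_PBS 5, with a lowest adjusted p of 0.0289. It also passed in limma-voom (adjusted p = 0.0472) and in 3 other settings besides the joint omission of these libraries, so Dlg4 lies close to the threshold. Dlg2 stood at 134 ± 16.6, 113 ± 22.2 and 115 ± 10.9 CPM in WT_PBS, Het_PBS and Het_B12 (SD, n = 5). Dlg1 and Dlg3 differed by at most 0.08 on the log2 scale in any comparison. A same-strand gene that overlaps Dlg2 had 9.26% as many reads as Dlg2.

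The SAPAP proteins, encoded by the Dlgap genes, bridge the MAGUKs and the Shanks. Dlgap1 was at 903, 876, 862, 843 and 860.3 CPM in WT_PBS 1 to 5, at 927, 906, 862, 866 and 1034 in Het_PBS 1 to 5, and at 1219, 1000.0, 881, 1037 and 921 in Het_B12 1 to 5. The wild-type libraries were tight, and Het_B12 1, 2, 4 and 5 lay above all of them. Its log2 differences were 0.14 ± 0.10 (adjusted p = 0.447) against Het_PBS and 0.22 ± 0.10 (adjusted p = 0.181) against WT_PBS. Dlgap2 (ENSMUSG00000047495, chr8:14095865-14847680, plus strand) rose in Het_B12 against WT_PBS. Dlgap2 was at 42.7, 65.4, 55.5, 61.7 and 48.1 CPM in WT_PBS 1 to 5, at 75.3, 75.3, 61.3, 51.6 and 53.2 in Het_PBS 1 to 5, and at 70.0, 64.9, 64.9, 97.7 and 81.6 in Het_B12 1 to 5. Het_B12 1, 4 and 5 were above all wild types, while Het_B12 2 and 3 lay within the wild-type range. The log2 difference was 0.48 ± 0.15 (adjusted p = 0.0478), or 1.39-fold, and against Het_PBS it was 0.26 ± 0.15 (adjusted p = 0.335). The call rests near the threshold. It was lost in 9 of 15 fits that left out 1 library (any of WT_PBS 1 and 5, Het_PBS 1 to 4 and Het_B12 1, 4 and 5, adjusted p up to 0.168) and in 5 of 10 other settings. Dlgap3 and Dlgap4 did not pass in any comparison, with group means of 117 to 125 and 339 to 377 CPM.

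Shank proteins hold the deeper layer of the density together, and none of the 3 genes passed. Shank1 was at 592, 632, 568, 575 and 474 CPM in WT_PBS 1 to 5, at 533, 651, 467, 556 and 422 in Het_PBS 1 to 5, and at 673, 537, 592, 668 and 637 in Het_B12 1 to 5. Het_PBS 5 was the lowest library and Het_B12 1 the highest, and the groups overlapped. Its log2 difference was 0.24 ± 0.11 (adjusted p = 0.191) in Het_B12 against Het_PBS. Shank2 and Shank3 are the lowest members here. Shank2 stood at 28.4 ± 4.31, 29.2 ± 6.81 and 35.2 ± 5.89 CPM in WT_PBS, Het_PBS and Het_B12. Shank3 stood at 16.8 ± 2.88, 15.1 ± 3.78 and 10.5 ± 5.37 CPM, the latter from 5.37 to 19.1. Its log2 difference in Het_B12 against WT_PBS was -0.67 ± 0.28 (adjusted p = 0.158), with a 95% interval of -1.24 to -0.09. Without Het_B12 4, its highest Het_B12 library, the adjusted p was 0.0327.

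Homer proteins bind Shanks and metabotropic glutamate receptors, and Homer1 also gives a short activity-induced form that these gene counts do not separate. Homer1 was at 173, 141, 110.4, 161 and 125 CPM in WT_PBS 1 to 5, at 147, 165, 121, 146 and 135 in Het_PBS 1 to 5, and at 153, 159.8, 166, 117 and 118 in Het_B12 1 to 5. The 3 groups covered the same range, and its log2 differences were 0.01, -0.00 and 0.00, with 95% intervals that reached no farther than 0.27 in either direction. Homer2 stood at 145 ± 21.4, 144 ± 14.1 and 128 ± 19.0 CPM, with no call. Homer3 stood at 57.4 ± 6.47, 58.4 ± 11.6 and 52.7 ± 11.8 CPM, also with no call. Homer3 is uncertain, because Ddx49, which overlaps it on the opposite strand, had 52.1% as many reads and the sources used here give no strand setting for the counting.

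CaMKII is built from subunits of 4 genes, of which Camk2a and Camk2b make up most of the forebrain enzyme, and Camk2g is a minor subunit there. Camk2g (ENSMUSG00000021820, chr14:20734875-20794088, minus strand) rose with the vitamin. Camk2g was at 51.3, 79.2, 69.0, 80.5 and 54.3 CPM in WT_PBS 1 to 5, at 52.9, 82.8, 65.2, 52.9 and 46.6 in Het_PBS 1 to 5, and at 95.5, 100.3, 90.7, 83.4 and 84.4 in Het_B12 1 to 5. All 5 Het_B12 libraries lay above all 10 libraries of the other groups, the lowest at 83.4 CPM. Against Het_PBS the log2 difference was 0.59 ± 0.15 (adjusted p = 0.0108), or 1.5-fold. It passed in all 15 fits that left out 1 library and in all 10 other settings. Against WT_PBS it was 0.45 ± 0.15 (adjusted p = 0.0586) and did not pass, although it did so in 4 fits without 1 library (WT_PBS 2 or 4, Het_PBS 2 or 5) and in 6 other settings.

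The other CaMKII subunits did not pass in any comparison. Camk2a was at 2632, 2909.8, 2179.5, 2883 and 2426 CPM in WT_PBS 1 to 5, at 2349, 3054, 2514, 2808 and 2459 in Het_PBS 1 to 5, and at 2500.4, 2071, 2557, 2395 and 2605 in Het_B12 1 to 5. The groups overlapped, and Camk2a had log2 differences of -0.12 ± 0.10 (adjusted p = 0.540) in Het_B12 against Het_PBS and -0.10 ± 0.10 (adjusted p = 0.596) against WT_PBS. Camk2b stood at 431 ± 59.0, 423 ± 33.7 and 483 ± 32.6 CPM in WT_PBS, Het_PBS and Het_B12, with a difference of 0.19 ± 0.10 (adjusted p = 0.285) in Het_B12 against Het_PBS. Camk2d stood at 94.4 ± 12.9, 86.7 ± 12.3 and 109 ± 12.6 CPM, with a difference of 0.33 ± 0.13 (adjusted p = 0.116).

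**Figure D3:**
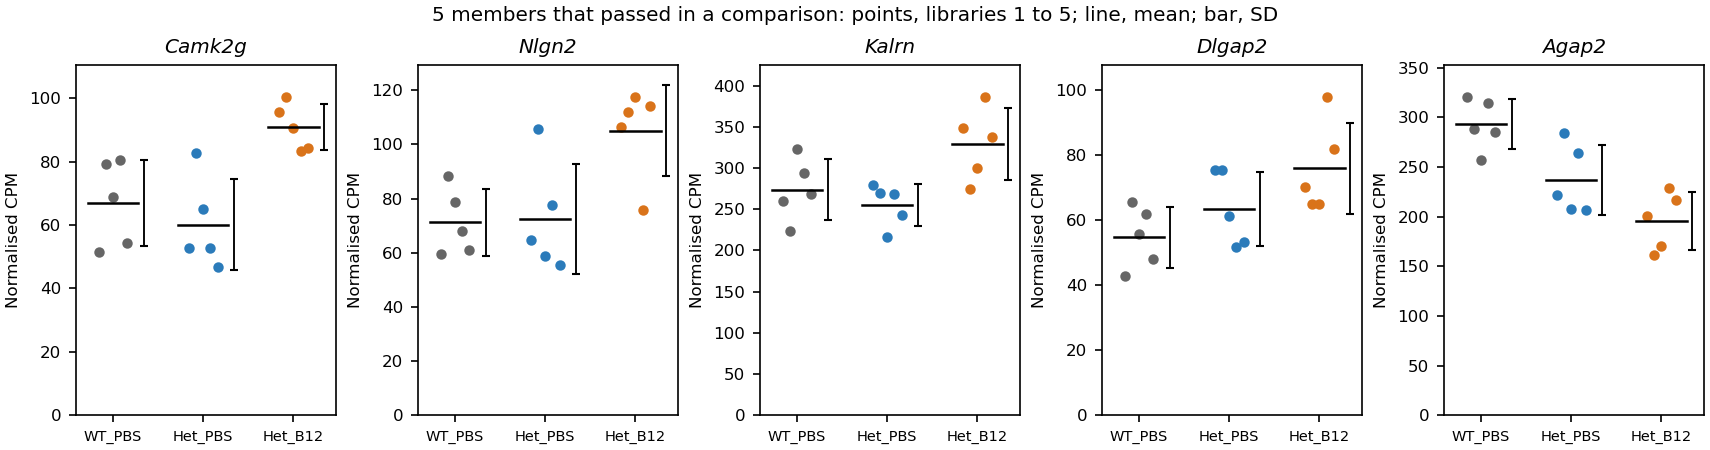
Normalised CPM of the 5 genes that passed in a comparison, with 1 point per library, the group mean as a line and the SD as a bar (n = 5). The Het_B12 points of Camk2g lie above all others, those of Agap2 lie below all wild types, and in Nlgn2 Het_B12 4 stands apart at 75.9 CPM.

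Nrgn, or neurogranin, binds calmodulin when calcium is low, and Ppp3ca encodes the main catalytic subunit of calcineurin in neurons. Neither passed in any comparison. Nrgn was at 7101, 7804, 7140.5, 8675 and 6269.6 CPM in WT_PBS 1 to 5, at 7679.8, 8276, 7091, 8014 and 6424 in Het_PBS 1 to 5, and at 6339.7, 5442, 6994, 7824 and 7148 in Het_B12 1 to 5. Het_B12 2 was the lowest library, and the log2 differences were 0.02, -0.15 and -0.13. Ppp3ca stood at 2472 ± 142, 2489.6 ± 221 and 2550.2 ± 55.8 CPM in WT_PBS, Het_PBS and Het_B12. Its 95% interval in Het_B12 against Het_PBS was -0.15 to 0.22 on the log2 scale.

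Neuroligins and neurexins pair across the cleft. Neuroligin 1 is found mainly at excitatory synapses and neuroligin 2 at inhibitory ones. Nlgn2 (ENSMUSG00000051790, chr11:69823122-69837784, minus strand) rose in Het_B12 against both other groups. Nlgn2 was at 59.5, 88.5, 78.9, 68.0 and 61.0 CPM in WT_PBS 1 to 5, at 64.6, 106, 58.7, 77.6 and 55.6 in Het_PBS 1 to 5, and at 106, 112, 117, 75.9 and 114 in Het_B12 1 to 5. Het_B12 1, 2, 3 and 5 lay above every saline library, while Het_B12 4 lay among them and below Het_PBS 2. The log2 difference was 0.53 ± 0.15 (adjusted p = 0.0278) against Het_PBS, 1.44-fold, and 0.57 ± 0.16 (adjusted p = 0.0187) against WT_PBS, 1.49-fold. Against Het_PBS the call was lost in 7 of 15 fits without 1 library (any of Het_PBS 1, 3 and 5 and Het_B12 1, 2, 3 and 5, adjusted p up to 0.0898). Against WT_PBS it was lost in 3 (WT_PBS 1, WT_PBS 5 or Het_B12 3, adjusted p up to 0.0730). Markers of inhibitory neurons stood as follows. Of 7, 1 rose and 1 fell against Het_PBS, and their summed level was 893 to 1030 CPM in Het_B12 and 972 to 1117 in Het_PBS. Against WT_PBS (846 to 1109 CPM), 2 rose and 1 fell.

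The other neuroligins did not pass. Nlgn1 stood at 121 ± 2.95, 108 ± 14.0 and 109 ± 11.5 CPM in WT_PBS, Het_PBS and Het_B12, and Nlgn3 at 74.0 ± 9.02, 72.9 ± 7.04 and 73.4 ± 9.62. In Het_B12 against Het_PBS their log2 differences were 0.01 and 0.01, with 95% intervals of -0.22 to 0.25 and -0.26 to 0.27. Nrxn2 was at 706, 822, 726, 630.5 and 671 CPM in WT_PBS 1 to 5, at 841, 719, 616, 706 and 846 in Het_PBS 1 to 5, and at 982, 880.0, 746, 758 and 647 in Het_B12 1 to 5. Het_B12 1 was the highest library and the groups overlapped, with log2 differences of 0.07, 0.11 and 0.17, none of which passed. Nrxn3 stood at 549 ± 36.3, 518 ± 42.2 and 590.3 ± 25.7 CPM. All 5 of its Het_B12 libraries lay above Het_PBS, but the log2 difference of 0.19 ± 0.10 (adjusted p = 0.247) did not pass.

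Kalrn encodes kalirin, an exchange factor for small GTPases that acts on spine actin, and Agap2 encodes an Arf GTPase-activating protein. Kalrn (ENSMUSG00000061751, chr16:33969073-34573532, minus strand) rose in Het_B12 against Het_PBS. Kalrn was at 259.9, 224, 323, 294 and 268 CPM in WT_PBS 1 to 5, at 279, 269, 217, 268 and 243 in Het_PBS 1 to 5, and at 348, 274, 299.8, 386 and 337 in Het_B12 1 to 5. Het_B12 1, 3, 4 and 5 lay above every Het_PBS library, and Het_B12 2 lay within the Het_PBS range. The log2 difference was 0.37 ± 0.11 (adjusted p = 0.0393), or 1.29-fold, and 0.27 ± 0.11 (adjusted p = 0.155) against WT_PBS. The call was lost in 7 of 15 fits without 1 library (any of Het_PBS 2 to 5 and Het_B12 1, 4 and 5, adjusted p up to 0.132). With an offset for transcript length it was 0.20 (adjusted p = 0.279).

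Agap2 (ENSMUSG00000025422, chr10:127075284-127093169, plus strand) fell in Het_B12 against WT_PBS. Agap2 was at 320.3, 289, 257, 314 and 285 CPM in WT_PBS 1 to 5, at 221, 284, 207, 264 and 207 in Het_PBS 1 to 5, and at 201, 161, 170.4, 229 and 217 in Het_B12 1 to 5. Every Het_B12 library lay below every wild type, and the Het_PBS libraries overlapped both other groups. The log2 difference was -0.59 ± 0.12 (adjusted p = 0.00130), so that the wild-type level was 1.5-fold higher. The call was kept in all 15 fits without 1 library and in all 10 other settings. The log2 difference was -0.31 ± 0.12 (adjusted p = 0.563) in Het_PBS against WT_PBS and -0.28 ± 0.12 (adjusted p = 0.146) in Het_B12 against Het_PBS, so neither step passed alone. Iqsec1 and Iqsec2, exchange factors for Arf GTPases, did not pass. Their group means in WT_PBS, Het_PBS and Het_B12 were 262 ± 52.5, 237 ± 29.7 and 253 ± 21.3 CPM for Iqsec1. For Iqsec2 they were 129 ± 22.1, 111 ± 16.2 and 104 ± 18.3 CPM.

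No adaptor passed. Cnksr2 encodes a scaffold of Ras signalling at the density, Baiap2 a membrane-bending adaptor that binds Shanks, and Lrrc7 encodes densin. Cnksr2 was at 518, 467, 407, 510.4 and 384 CPM in WT_PBS 1 to 5, at 413, 439, 425, 466 and 499 in Het_PBS 1 to 5, and at 449, 346, 388, 534 and 489 in Het_B12 1 to 5. The groups overlapped, and the log2 differences were -0.03, -0.02 and -0.05. Baiap2 stood at 136 ± 33.2, 134 ± 14.4 and 169 ± 19.9 CPM in WT_PBS, Het_PBS and Het_B12, with 0.33 ± 0.13 (adjusted p = 0.129) in Het_B12 against Het_PBS. Lrrc7 stood at 52.5 ± 8.12, 45.9 ± 7.64 and 61.7 ± 8.04 CPM, with 0.42 ± 0.15 (adjusted p = 0.0771). The latter passed without Het_PBS 1 (adjusted p = 0.0354) and with a stricter filter on low counts (adjusted p = 0.0408).

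**Figure D4:**
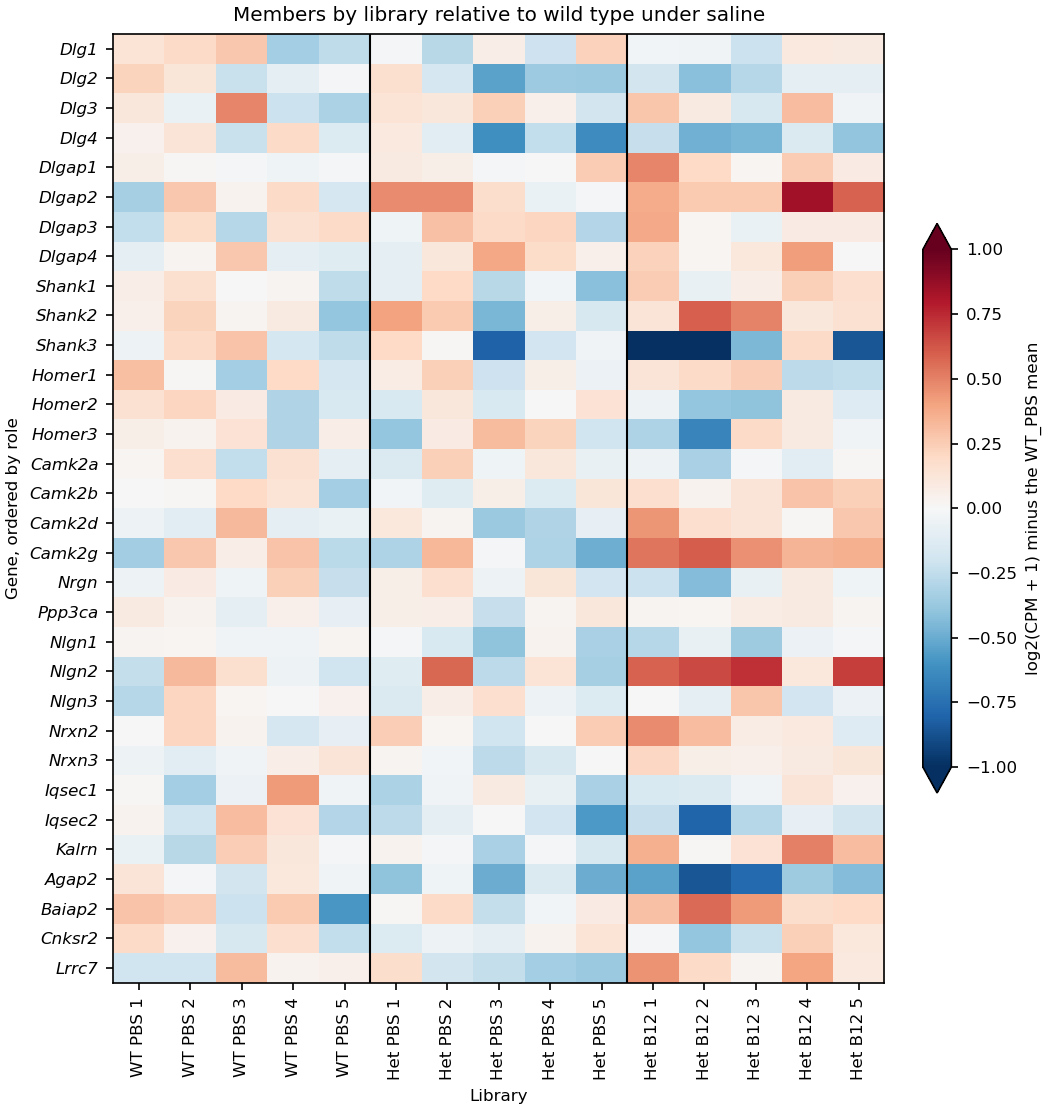
Each of the 32 genes in each of the 15 libraries as log2(CPM + 1) minus the WT_PBS mean, in rows ordered by role, on a colour scale that ends at 1 in either direction. Camk2g and Nlgn2 are mostly red and Agap2 blue in the Het_B12 columns, and Shank3 is beyond the blue end in Het_B12 1 and 2, while most rows show no block by group.

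Shares within a family compare subunits of the same library and do not depend on scaling between libraries. They are given without a test. Camk2g took 2.09% ± 0.338 of CaMKII reads in wild types, 1.86% ± 0.327 in Het_PBS and 2.95% ± 0.446 in Het_B12 (SD, n = 5), and all Het_B12 libraries (2.55% to 3.69%) lay above the others (at most 2.41%). Camk2a took 81.4% ± 2.90, 82.1% ± 2.06 and 78.0% ± 1.22, with every Het_B12 library below every Het_PBS library and an overlap with wild types through WT_PBS 3 (76.3%). Camk2b took 13.6% ± 2.16, 13.3% ± 1.92 and 15.6% ± 0.933, with overlap. The CaMKII reads together stood at 3199 ± 317, 3206 ± 275 and 3108 ± 232 CPM.

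Of the reads of neuroligins 1 to 3, Nlgn2 took 26.6% ± 2.81 in WT_PBS, 28.3% ± 4.67 in Het_PBS and 36.4% ± 3.85 in Het_B12, and Nlgn1 took 45.6% ± 3.65, 42.7% ± 4.34 and 38.0% ± 5.19. In 4 of 5 Het_B12 libraries Nlgn2 took a larger share (37.4% to 39.0%), above every saline library, and in Het_B12 4 it took 29.6%. Among the Shanks, Shank1 took 92.6%, 92.2% and 93.1% of reads, and Shank3 took 2.74% ± 0.365, 2.67% ± 0.683 and 1.55% ± 0.717, with overlap. Dlg4 took 61.6% ± 4.84, 57.9% ± 4.59 and 56.9% ± 1.08 of MAGUK reads.

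**Figure D5:**
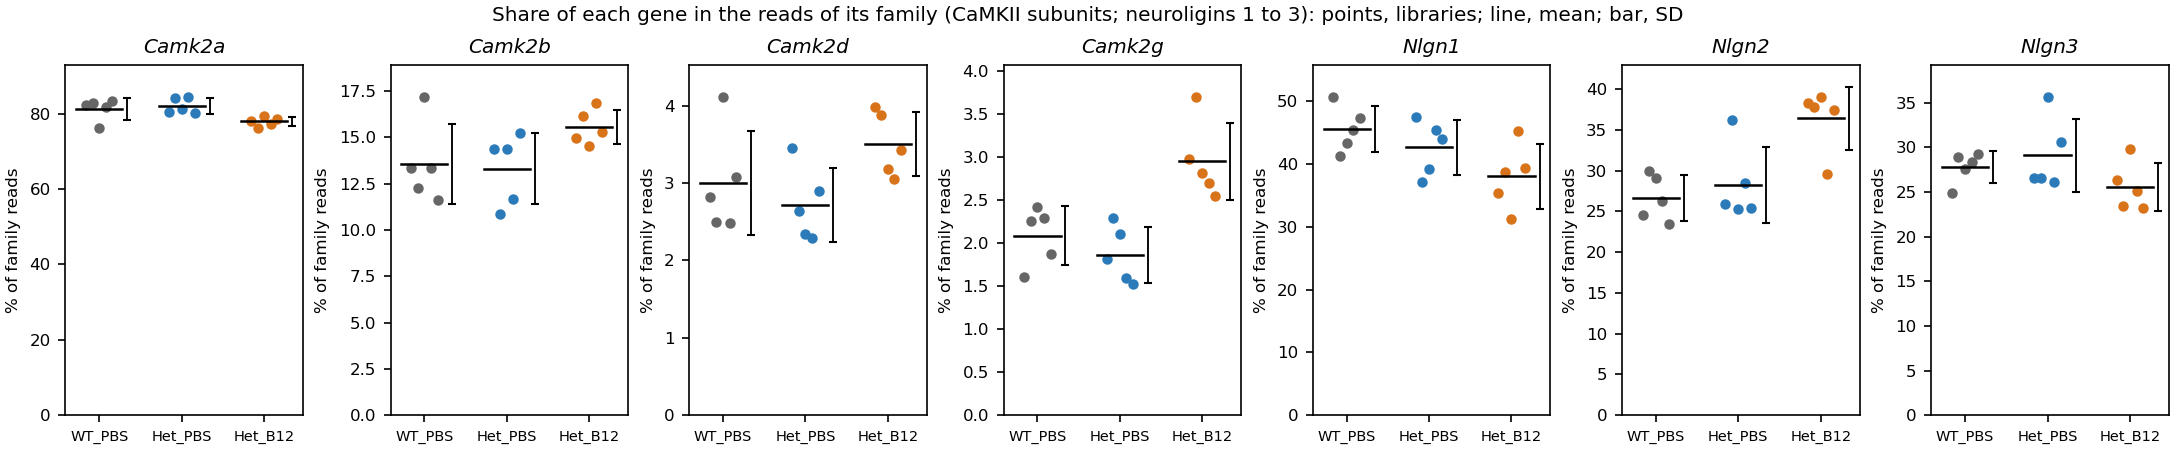
Share of each CaMKII subunit and each neuroligin in the reads of its family, in percent, with 1 point per library, the mean as a line and the SD as a bar (n = 5). Camk2g is higher in all 5 Het_B12 libraries than in all other libraries, and the Nlgn2 share of Het_B12 overlaps the other groups through Het_B12 4.

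Another 138 genes of the synapse were listed by role, and 137 were tested. Of these, 0 passed in Het_PBS against WT_PBS in edgeR, DESeq2 and limma-voom, with 9 at an unadjusted p under 0.05. In Het_B12 against Het_PBS, 12 rose and 4 fell, beside 3.47% and 3.79% of all genes. In Het_B12 against WT_PBS, 12 rose and 5 fell, beside 3.22% and 4.11% of all genes. These shares of all genes are also the background of the lists that follow. In Het_PBS against WT_PBS, small p-values belonged to Adgrl3 and Lrrtm1 among adhesion genes and to Sorbs2 and Lin7c among scaffolds. Others were Camkv in the list of kinase, phosphatase and calmodulin genes, and Cfl1 and Arhgef7 among actin regulators. The log2 differences of all these genes ran from -0.35 for Adgrl3 to 0.47 for Lrrtm1, and the smallest adjusted p was 0.526.

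Adhesion genes held most of the rises against Het_PBS. Of 39, 7 rose and none fell, beside the 3.47% of all genes that rose. Above 0 were 29, beside 51.4% of all genes, and the median log2 difference was 0.17 beside 0.01. In the class with the longest transcripts, 7.94% of all genes rose and the median was 0.12. The transcript lengths of the adhesion genes were not compared with that class, and the list was chosen with earlier results of these data known. Lrrc4b (0.71 ± 0.13 (adjusted p = 0.000711)), Lrfn5 (0.87 ± 0.18 (adjusted p = 0.00165)), Ncam1 (0.49 ± 0.10 (adjusted p = 0.00248)) and Mdga2 (0.62 ± 0.15 (adjusted p = 0.00750)) had the smallest adjusted p. Lrrc4b and Lrfn5 encode postsynaptic leucine-rich repeat proteins, and Mdga2 encodes a protein that binds neuroligins and blocks their contact with neurexins. Against WT_PBS, 5 adhesion genes rose and 2 fell. Ncam1 (0.59 ± 0.10 (adjusted p = 0.000410)), Lrrc4c (0.63 ± 0.13 (adjusted p = 0.00189)) and Lrrc4b (0.60 ± 0.13 (adjusted p = 0.00417)) rose, and Cadm2 fell (-0.46 ± 0.11 (adjusted p = 0.00892)).

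Among 34 other kinase, phosphatase and calmodulin genes, 1 rose and 2 fell against Het_PBS. The calmodulin gene Calm2 (-0.72 ± 0.11 (adjusted p = 6.25e-05)) and Camk2n1, which encodes an inhibitor of CaMKII (-0.31 ± 0.10 (adjusted p = 0.0412)), fell. Against WT_PBS 3 rose and 2 fell. These included Ptk2b (0.45 ± 0.14 (adjusted p = 0.0374)) and Camk1 (0.42 ± 0.13 (adjusted p = 0.0420)), which rose, and Calm2 (-0.69 ± 0.11 (adjusted p = 0.000125)), which fell. Calm2 encodes the same calmodulin protein as its sister genes.

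Of 30 other scaffold genes tested, 2 rose and 1 fell against Het_PBS: Sorbs2 0.63 ± 0.13 (adjusted p = 0.00248) and Tanc2 0.37 ± 0.12 (adjusted p = 0.0470) rose, and Cript -0.56 ± 0.15 (adjusted p = 0.0174) fell. Against WT_PBS, Tanc2 (0.58 ± 0.12 (adjusted p = 0.00159)) and Lin7a (0.59 ± 0.16 (adjusted p = 0.0177)) rose and none fell. Of 34 actin and GTPase genes, 2 rose and 1 fell against Het_PBS. Wasl (0.57 ± 0.12 (adjusted p = 0.00230)) and Actn1 (0.62 ± 0.15 (adjusted p = 0.00547)) rose. Both also rose against WT_PBS, by 0.61 and 0.58 on the log2 scale. Wasl encodes an activator of actin branching. Without WT_PBS 3 and Het_PBS 5, the other synaptic genes called in Het_B12 against WT_PBS were 28 in place of 17.

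Transcript length moved with the vitamin comparison over the whole table. Of the genes in the top 20% by length of the longest annotated transcript, 7.94% rose in Het_B12 against Het_PBS, and 0.640% of those in the shortest 20% did. In either direction 9.01% of the longest and 9.94% of the shortest were called, so the classes differed mainly in direction. The longest class holds 19 of the 32 members, whose median longest transcript is 5878 bases against 3604 for all genes tested. Across all genes the Spearman correlation of length with the log2 difference was 0.26 (11715 genes), and across the 32 members it was 0.00. In Het_PBS against WT_PBS it was -0.14 across all genes and -0.36 across the members, and in Het_B12 against WT_PBS it was 0.15 and -0.17. These are across genes of the same libraries, which are not independent replicates. With a length offset the members' log2 differences in Het_B12 against Het_PBS moved by a median of -0.09. Camk2g still passed (0.54, adjusted p = 0.0230), and Nlgn2 (0.45, adjusted p = 0.0805) and Kalrn did not.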

How the data were processed

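Raw counts per gene were used as the authors deposited them. The submitters' processing notes name STAR, HTSeq, edgeR and mm10, with no role, and the sources used here give no strand setting or annotation for the counting. Gene positions and lengths are from GENCODE M21 (GRCm38), which matched 99.87% of the identifiers. Of 21 members that overlap another annotated gene, 1 (Homer3) has an overlapping gene with more than 10% of its reads.

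In R 4.3.3 with edgeR 4.0.16, filterByExpr kept 11718 genes, all 32 members included. Counts were scaled by TMM and fitted to all 15 libraries by the quasi-likelihood method with 1 mean per group, no covariates and 12 residual degrees of freedom. A gene passed, or was called, where its two-sided p, adjusted over all genes tested by Benjamini-Hochberg, was under 0.05, and all adjusted p-values are of this kind. Errors of log2 values are standard errors. On simulated counts of 11718 genes, 2-fold changes were recovered at 64%, 67% and 64% and 1.5-fold changes at 24%, 29% and 22% in Het_PBS against WT_PBS, Het_B12 against Het_PBS and Het_B12 against WT_PBS. The share of calls that were false was 4.35%, 7.69% and 7.53%.

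No label says that libraries of a group come from separate cages or litters, so p-values measure the spread between these samples. Alternatives used DESeq2 1.42.0, limma-voom (limma 3.58.1), other filters and scalings, a transcript-length offset, a replicate block and omitted libraries. The members and all gene lists were chosen with earlier results of these data known. Values in every library are given for members called in any comparison and for the member of each role with the highest mean count. Of each other synaptic list, up to 4 called genes with the smallest adjusted p are named, or, with none called, the 2 with the smallest p. Some genes that this rule selects are counted but not reported here by name. Marker lists are given as counts.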

Additional observations from a re-analysis of the deposited data

Results flagged for a closer look

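In 4 of 96 sets of 5 libraries (32 genes in 3 groups), 1 library stood apart from its group by Dixon's test at its 95% critical value of 0.710, and chance gives about 5% of sets. The gap to the nearest library, as a share of the group's range, is given with each.

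Nlgn2 in Het_B12 4 was 75.9 CPM, with the other Het_B12 libraries at 106 to 117 (0.733). Without that library, Nlgn2 rose by 0.63 on the log2 scale against Het_PBS in edgeR's quasi-likelihood test (adjusted p = 0.0114). Camk2d in WT_PBS 3 was 117 CPM, with the others at 87.3 to 90.3 (0.900). Homer3 in WT_PBS 4 was 46.3 CPM, with the others at 58.4 to 63.1 (0.721). Ppp3ca in Het_PBS 3 was 2108 CPM, with the others at 2516 to 2671 (0.725).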

How the results depend on the processing

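Camk2g in Het_B12 against Het_PBS and Agap2 in Het_B12 against WT_PBS passed under every alternative run. The other 4 calls were each lost in 3 to 9 of the 15 fits without 1 library, as given with each gene.

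Counts that moved by over 1.5 times were these. Genes called in Het_PBS against WT_PBS were 40 with no filter on low counts and 1 without WT_PBS 3 and Het_PBS 5. Members called in Het_B12 against Het_PBS were 1 with the length offset, where 652 genes were called over the whole table, and 1 without these libraries, where 947 were (851 in the reported fit). In Het_B12 against WT_PBS without them, 1390 genes, 5 members and 28 other synaptic genes were called, and limma-voom called 5 members. Leaving out 1 library gave 0 to 14, 549 to 1050 and 449 to 1268 genes in the order Het_PBS against WT_PBS, Het_B12 against Het_PBS and Het_B12 against WT_PBS. It gave 0 to 0, 1 to 3 and 1 to 5 members, and 0 to 0, 10 to 18 and 10 to 27 other synaptic genes. The single libraries behind changed member counts are Het_PBS 3 and 5 and Het_B12 1 and 5 (1 member each, against Het_PBS), and WT_PBS 1 and 5 (1 member each) and Het_PBS 5 (5 members, against WT_PBS).

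The values in this paragraph are those of the 13 members given in every library, and where they changed sign the adjusted p was at least 0.750. Of the 19 other members, 9, 10 and 3 changed sign under some alternative in Het_PBS against WT_PBS, Het_B12 against Het_PBS and Het_B12 against WT_PBS, and the lowest adjusted p of these under any alternative was 0.741, 0.440 and 0.582. Homer1 in Het_B12 against WT_PBS was -0.00144 in DESeq2, -0.00164 with DESeq2 size factors, -0.00278 without Gm42418 and mitochondrial genes, -0.0536 with the length offset and -0.0782 without WT_PBS 3 and Het_PBS 5. In Het_B12 against Het_PBS, a mean count of at least 50 (which leaves out Shank3) gave 0.00588 for Cnksr2 and 0.0299 for Homer1. Cnksr2 was 0.00802 without WT_PBS 3 and Het_PBS 5 and Nrxn2 -0.00160 with the length offset. In Het_PBS against WT_PBS, the length offset gave 0.00112 for Cnksr2 and -0.0286 for Nrgn, and omission of WT_PBS 3 and Het_PBS 5 gave -0.0148 for Camk2a and -0.0462 for Homer1. Without 1 library the log2 ranges were Camk2a -0.0418 to 0.0592, Cnksr2 -0.0870 to 0.0200, Homer1 -0.0586 to 0.0884, Nlgn2 -0.137 to 0.130, Nrgn -0.0352 to 0.0831 in Het_PBS against WT_PBS; Cnksr2 -0.102 to 0.0527, Dlg4 -0.144 to 0.0413, Homer1 -0.0641 to 0.0607 in Het_B12 against Het_PBS; Cnksr2 -0.132 to 0.0237, Homer1 -0.0716 to 0.0854 in Het_B12 against WT_PBS. The cause was not tested.

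No label says that replicate numbers pair the samples. The correlation of deviations of same-numbered libraries was -0.0933 to 0.106 over 15 pairs. A library correlated best with its own number in 10 of 30 cases, each a choice among 5 libraries. These values cannot exclude a pairing. With the number as a replicate block, 0, 3 and 4 members and 0, 830 and 800 genes were called, and Homer1 in Het_B12 against Het_PBS was 0.00186.

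Shank3 has the lowest counts of the members. A difference of 1.5-fold was seldom recovered in counts simulated over all genes tested. Those genes have a lower median level and a larger median SD (0.33 against 0.20), so this recovery does not describe the members. Of the 32 members, 31 had a 95% interval within 1.5-fold in Het_PBS against WT_PBS. The count was 25 in Het_B12 against Het_PBS and 24 in Het_B12 against WT_PBS. An uncalled member is bounded by its interval only, and is not shown to be the same in the groups. The wild types carried no vitamin, and Tbx1 could not check the labels.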
